A study of Mus musculus with 9 samples.

Results

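Choroid plexus transcripts were followed on microarrays of the mouse striatum, a brain region that borders the lateral ventricle. The list held 10 genes, Ttr, Ace, Kl, Folr1, Enpp2, Igf2, Clic6, Kcnj13, Aqp1 and Sostdc1, of 12393 genes named on the array. Its members were chosen from knowledge of choroid plexus and selected on signals of these same arrays, since the spread of Ttr over the arrays and the lower values of a ventricular marker list in MPTP mice were known when the list was drawn up. Levels, covariation and group differences of the members are therefore given as descriptions. All probe sets with exactly 1 of these symbols were taken, which gave 13 of 22690 probe sets for 7 of the 10 genes. The annotation used here named no probe set for Enpp2 (autotaxin, which makes lysophosphatidic acid), Clic6 (a protein of the chloride intracellular channel family) or Kcnj13 (a potassium channel), and they were not analysed here.

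The arrays came from 9 male C57BL/6J mice aged 56 days, 1 array per mouse, from left and right striatum. Of these, 3 mice had received methamphetamine (METH), 3 had received MPTP and 3 had received saline (control). METH is a psychostimulant that damages dopamine terminals at high doses, MPTP is a precursor of a toxin taken up by dopamine neurons, and both serve as models of Parkinson's disease. The sources used here state neither doses nor when tissue was taken after treatment. The tissue was striatal by its markers: Penk, an opioid peptide gene of spiny neurons, had a signal of 51369 to 55970 in METH, 47496 to 56247 in MPTP and 50590 to 59113 in control arrays. Array medians ran from 1110.5 to 1233, with METH 2 highest. Signals are linear intensities in arbitrary units, and a log2 difference of 1 is a doubling.

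The choroid plexus is a fold of vascularised epithelium inside the ventricles that secretes cerebrospinal fluid and controls what enters it from the blood. It is not part of the striatum but hangs in the ventricle beside it, and can be taken along when the striatum is dissected. Whether that happened here was not tested. Its epithelium makes transthyretin in great abundance and carries water channels, ion transporters and vitamin carriers. In bulk RNA, fewer cells of a type and less RNA per cell cannot be told apart.

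Ttr encodes transthyretin, the carrier of thyroid hormone that choroid plexus secretes into cerebrospinal fluid. Its brightest probe set (1454608_x_at) had signals of 43941, 50423 and 8555 in METH 1, 2 and 3, of 33342, 2853 and 7142 in MPTP 1, 2 and 3, and of 65370, 34985 and 11543 in control 1, 2 and 3. The highest array, control 1, was 22.9-fold above the lowest, MPTP 2, and each of the 3 groups held at least 1 bright and 1 dim array. Ordered by level, the arrays ran control 1, METH 2, METH 1, control 2, MPTP 1, control 3, METH 3, MPTP 3 and MPTP 2. The steps between neighbours were 1.05-fold to 1.35-fold, except for 2.89-fold between MPTP 1 and control 3 and 2.50-fold between MPTP 3 and MPTP 2. Without MPTP 2 the whole range was 9.15-fold.

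The other Ttr probe sets told the same order with at most 1 exchange of neighbours. Probe set 1451580_a_at had 22976, 41749 and 3675 in METH 1, 2 and 3, 20310, 1857 and 3611 in MPTP 1, 2 and 3, and 46062, 22855 and 6037 in control 1, 2 and 3. Probe set 1455913_x_at exchanged control 2 and METH 1. Correlations between the 3 probe sets were 0.99 to 1.00 over the 9 arrays. They target the same transcript and are not independent, and a suffix _x_at marks a probe set that may also bind other transcripts. Among the 7964 genes tested, Ttr had the largest SD within groups, 1.51 log2 units, against a median of 0.15 over all of them.

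**Figure D1:**
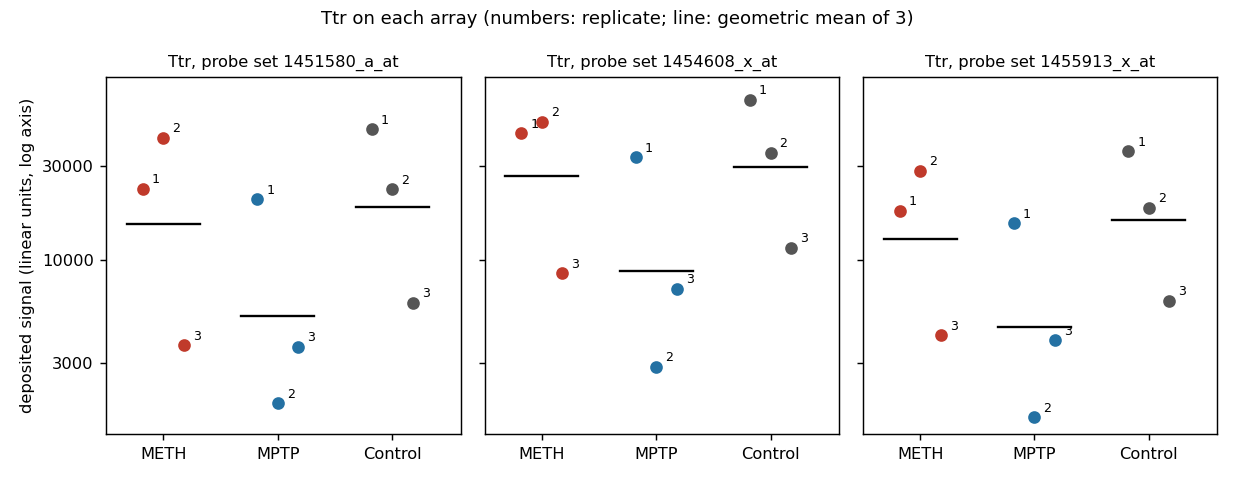
Signal of Ttr on each array for its 3 probe sets (1 panel each, log axis in linear signal units), with METH, MPTP and control from left to right. Points are single arrays with their replicate number and lines are geometric means of 3. In the middle panel the values run from 2853 in MPTP 2 to 65370 in control 1, and the groups overlap in all 3 panels.

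Kl encodes alpha-Klotho, a co-receptor for the hormone FGF23 and one of the proteins by which choroid plexus is recognised. The gene lies at chr5:150952607-150993817 (GRCm38.p6, as for all positions here). Its brighter probe set (1423400_at) had 824, 718 and 387 in METH 1, 2 and 3, 493, 321 and 310 in MPTP 1, 2 and 3, and 1560, 631 and 428 in control 1, 2 and 3. Control 1 was highest and MPTP 3 lowest, a 5.03-fold range. The other Kl probe set (1451892_at) was dim, at 30.2 to 93.6 on all arrays. It did not follow the brighter one (r = -0.32 over 9 arrays).

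Sostdc1 encodes a secreted antagonist of BMP and Wnt signals and lies at chr12:36314169-36318452. Probe set 1449340_at had 326, 76.9 and 26.4 in METH 1, 2 and 3, 375, 24.7 and 78.1 in MPTP 1, 2 and 3, and 708, 476 and 214 in control 1, 2 and 3. Again control 1 was highest and MPTP 2 lowest, a 28.7-fold range, but METH 2, an array bright in Ttr, was among the dim arrays here. The second probe set of Sostdc1 (1460250_at), at 32.6 to 147, had METH 2 next to control 1 at the top. On it the 3 METH arrays (93.1 to 131) lay above the 3 MPTP arrays (32.6 to 86.3). These groups lay apart, in either direction, for 7.09% of all genes tested, which leave out probe sets as dim as this one. The brighter Sostdc1 probe set had a METH minus MPTP log2 difference of -0.04 ± 1.18. At such low signals arrays vary most: the median SD within groups was 0.82 log2 units in the dimmest 10% of probe sets and 0.11 in the brightest 10%.

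Aqp1 encodes the water channel on the fluid-facing side of the epithelium and lies at chr6:55336299-55348555. It had 556, 527 and 291 in METH 1, 2 and 3, 455, 321 and 406 in MPTP 1, 2 and 3, and 695, 416 and 378 in control 1, 2 and 3. The top 4 arrays were control 1, METH 1, METH 2 and MPTP 1, all among the 5 brightest in Ttr.

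Igf2 encodes an insulin-like growth factor that in the adult brain comes mainly from choroid plexus and meninges, and lies at chr7:142650768-142666816. Its brighter probe set (1448152_at) had 2497, 3033 and 2123 in METH 1, 2 and 3, 2880, 2216 and 2593 in MPTP 1, 2 and 3, and 3316, 2694 and 2162 in control 1, 2 and 3. The order again started with control 1 and METH 2, over a range of only 1.56-fold. Its dimmer probe set (1415931_at) went another way, with 256, 392 and 267 in METH 1, 2 and 3, 488, 284 and 550 in MPTP 1, 2 and 3, and 285, 112 and 194 in control 1, 2 and 3. There MPTP 3 and MPTP 1 were highest, and the MPTP and control arrays met only at 284 in MPTP 2 and 285 in control 1.

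Folr1 encodes folate receptor alpha, which moves folate from blood into cerebrospinal fluid, and lies at chr7:101858331-101870788. It had 1364, 1470 and 883 in METH 1, 2 and 3, 1000, 890 and 954 in MPTP 1, 2 and 3, and 1187, 869 and 871 in control 1, 2 and 3. METH 2 and METH 1 were highest, above control 1, and the other 6 arrays lay within 869 to 1000. Control 2, the 4th array by Ttr, was the lowest for Folr1.

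Ace encodes angiotensin-converting enzyme, which striatal spiny neurons that project to the midbrain also make, so it is not specific to choroid plexus in this tissue. The gene lies at chr11:105967948-105989964. Its brighter probe set (1451911_a_at) had 1289, 1669 and 1063 in METH 1, 2 and 3, 1508, 1430 and 1255 in MPTP 1, 2 and 3, and 1771, 2058 and 1537 in control 1, 2 and 3. The 3 MPTP arrays lay below the 3 control arrays, while METH overlapped with control through METH 2. MPTP and control arrays lay apart, in either direction, for 11.3% of all genes tested. The dimmer probe set (1427034_at) fell into separate levels with nothing between them: 1687 in control 2, 1400 in control 3 and 1175 in MPTP 1, against 282 to 367 on the other 6 arrays. These were not the arrays highest in Ttr, and the probe set had r = 0.23 with Ttr over the 9 arrays, which became -0.21 without MPTP 2 and MPTP 3.

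**Figure D2:**
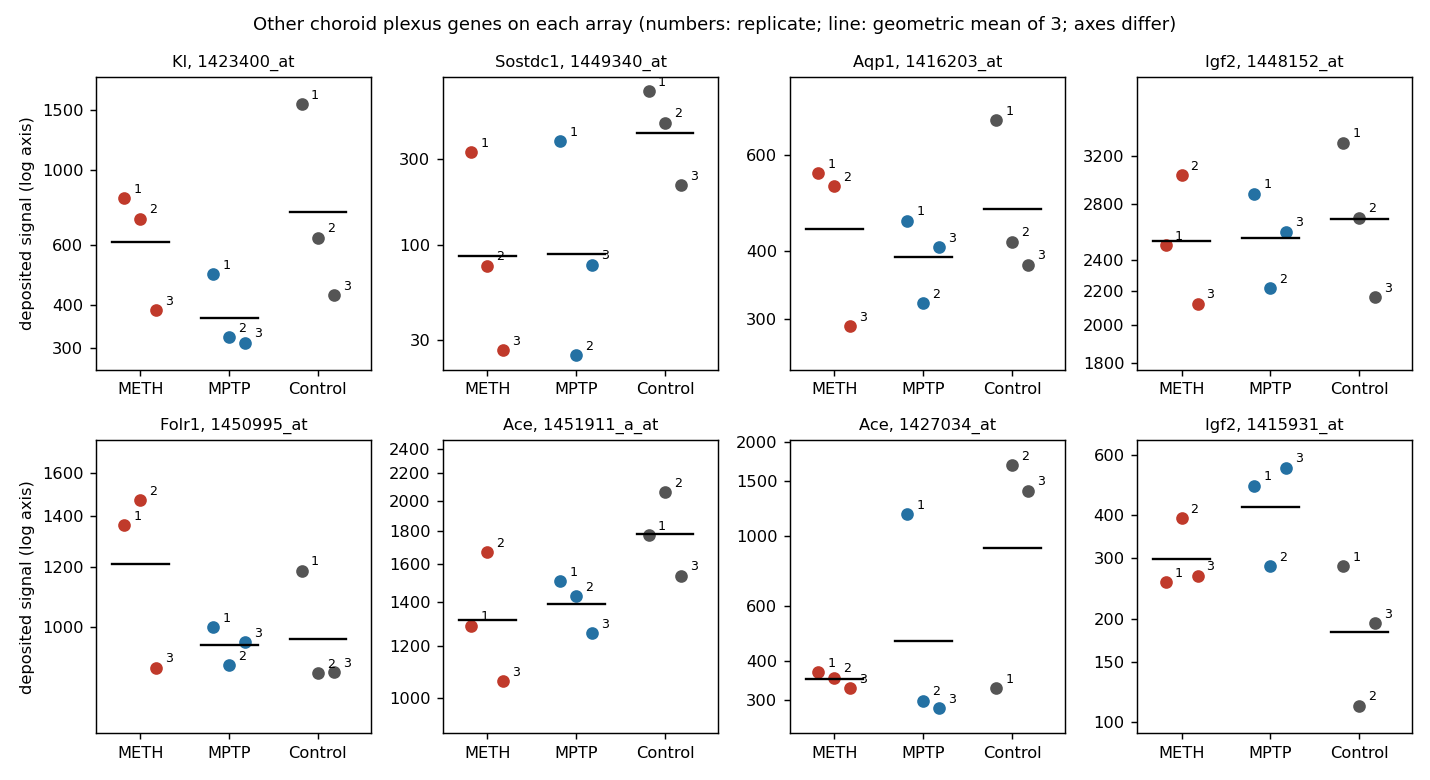
Signal of 8 probe sets of Kl, Sostdc1, Aqp1, Igf2, Folr1 and Ace on each array (log axes with different ranges), with METH, MPTP and control from left to right. Points are arrays with their replicate number and lines are geometric means of 3. Replicate 1 of control is highest for Kl, Sostdc1, Aqp1 and the brighter Igf2 probe set, and the dimmer Ace probe set shows 3 arrays at 1175 to 1687 and 6 at 282 to 367.

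No choroid plexus gene passed the test between METH and saline striatum, given the spread between mice. Ttr averaged 34306 ± 22535 in METH and 37299 ± 26988 in control mice (SD, n = 3 each), a log2 difference of -0.16 ± 0.96 (SE). Brightness limited what could be fitted: 4 of the 7 genes, Ttr, Igf2, Ace and Folr1, passed a filter at the 40th percentile of mean signal (741), Folr1 nearest above it at 1034 and Kl nearest below at 552 (geometric means). Of these 4, Ace had -0.43 ± 0.17, Folr1 0.33 ± 0.19 and Igf2 -0.09 ± 0.18. The median was -0.12, beside 0.00 over all 7964 genes, and 3 of 4 were lower, beside 49.7% of all genes. None of the 4 passed in limma (0 of 4, against 0.0126% of all genes called), and 1 of them, Ace, had an unadjusted p under 0.05, as did 657 of the 7964 genes. For 0 of the 4 did the 3 METH arrays lie apart from the 3 control arrays, which held for 13.7% of all genes.

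The direction of the METH median rested on single mice. It was 0.24 without control 1, 0.29 without METH 3 and 0.21 with array weights. Among the genes below the filter, log2 differences in a fit with no filter were -0.29 ± 0.50 for Kl, -0.12 ± 0.32 for Aqp1 and -2.26 ± 1.18 for Sostdc1. Of the 13 probe sets 9 were lower, beside 44.1% of all probe sets with 1 symbol. The higher ones were that of Folr1 and the dimmer ones of Sostdc1 (0.13 ± 0.42), Kl (0.50 ± 0.40) and Igf2 (0.70 ± 0.39).

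On their brightest probe sets, Ttr, Kl, Aqp1 and Folr1 had their lowest mean signal in MPTP striatum, and Ace, Igf2 and Sostdc1 in METH striatum. No difference between MPTP and saline striatum passed the test. Ttr averaged 14445 ± 16505 in MPTP and 37299 ± 26988 in control mice (SD, n = 3 each), a log2 difference of -1.76 ± 0.96. Ace had -0.35 ± 0.17, Igf2 -0.07 ± 0.18 and Folr1 -0.03 ± 0.19. The median of the 4 was -0.21, beside 0.01 over all genes, and all 4 were lower, beside 48.2% of all genes. In limma 0 of 4 passed, where 0.0126% of all genes were called, and 0 of 4 had an unadjusted p under 0.05, beside 437 of the 7964 genes. That count was 1, Ace, under quantile normalization, cyclic loess, centring on array medians and a fit of only these groups, and 2, Ace and Ttr, with the replicate block and without control 3. It was 0 or 1 with other single arrays left out. The groups lay apart for 1 of 4, Ace, and for 11.3% of all genes.

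Without control 1, without MPTP 2, and with array weights, only 2 of the 4 were lower. Single mice also set the size of the Ttr difference. It was -0.95 ± 0.96 without MPTP 2, -1.19 ± 1.06 without control 1, -2.44 ± 1.01 without control 3 and -2.72 ± 0.88 without MPTP 1. In the fit with no filter Kl had -1.03 ± 0.50, Sostdc1 -2.21 ± 1.18 and Aqp1 -0.29 ± 0.32. There 7 of 7 genes were lower, with a median of -0.35, beside 46.7% and a median of 0.01 over all genes. Of the 13 probe sets 11 were lower, beside 46.6% of all probe sets with 1 symbol. The dimmer probe sets of Igf2 (1.21 ± 0.39) and Kl (0.25 ± 0.40) were higher.

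METH and MPTP mice were also compared directly, and both comparisons with saline share the same 3 control arrays. Ttr had a METH minus MPTP log2 difference of 1.60 ± 0.96, Folr1 0.35 ± 0.19, Ace -0.08 ± 0.17 and Igf2 -0.01 ± 0.18. The difference of Ttr was 0.79 without MPTP 2, 2.42 without METH 3 and 2.56 without MPTP 1, and that of Folr1 was 0.21 without METH 2 and 0.58 without METH 3. In limma 0 of 4 passed, and 0% of all genes were called. At an unadjusted p under 0.05 there were 227 of 7964 genes, 0 of them members. The members at that level were 2 without METH 3, 1 without MPTP 1 and 1 with the replicate block. The arrays lay apart for 0 of the 4, against 7.09% of all genes.

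The members moved together from mouse to mouse. Each gene was represented by its brightest probe set, and the log2 signals of all 21 pairs of the 7 genes correlated positively over the 9 arrays. The median Pearson r was 0.68, and it was 0.01 over all pairs of the 12393 genes with no filter. Of the 21 pairs 10 had r over 0.7, or 47.6%, compared with 2.46% of all pairs with no filter. Of these 10 pairs 9 included Kl, Aqp1 or Sostdc1, which lie below the filter. Among the 4 genes past it the median r was 0.60 and 1 of 6 pairs, Ttr and Igf2, exceeded 0.7, beside a median of 0.00 and 2.54% of pairs over 0.7 for the 7964 genes tested. Kl and Aqp1 had the highest value (r = 0.89, Spearman's rho = 0.87), and Ace and Folr1 the lowest (r = 0.11, rho = -0.03). The points of each correlation share arrays and their scaling, and because covariation was part of how the genes were chosen no p-values are given.

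Ttr correlated best with Kl (r = 0.87, rho = 0.97) and Aqp1 (r = 0.85, rho = 0.88). Sostdc1 and Igf2 had r = 0.78 each (rho = 0.67 and 0.72), Folr1 had r = 0.68 (rho = 0.55) and Ace r = 0.53 (rho = 0.63). Without MPTP 2 and MPTP 3, the arrays farthest from the median of Ttr, the 6 genes had r of 0.59 to 0.93, lowest for Ace and highest for Aqp1. With each group centred on its own mean, the median over the 21 pairs was 0.78, so that the genes varied together among mice of the same treatment. The array median did not follow Ttr (r = 0.10, rho = -0.08 over 9 arrays).

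Amplitudes on the brightest probe sets differed widely among the 6 genes. For each log2 unit of Ttr, the fitted slope was 0.90 log2 units for Sostdc1, 0.42 for Kl, 0.22 for Aqp1, 0.13 for Folr1, 0.11 for Igf2 and 0.10 for Ace. The dimmer probe sets had slopes of 0.27 for Sostdc1, -0.11 for Kl, -0.05 for Igf2 and 0.16 for Ace. Sostdc1, Kl and Aqp1 lie below the filter. A mean over the 7 genes of their distance from the 9-array mean, in SDs, placed METH 2 at 0.70, METH 1 at 0.50 and METH 3 at -1.14. MPTP 1 stood at 0.26, MPTP 3 at -0.57 and MPTP 2 at -1.03, and control 1 at 1.33, control 2 at 0.38 and control 3 at -0.42. In each group replicate 1 stood above the 9-array mean and replicate 3 below it. Replicate 2 stood above it in METH and control and below it in MPTP. On control 1 all 7 genes were above their mean, and on METH 3 and MPTP 2 all 7 were below it.

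**Figure D3:**
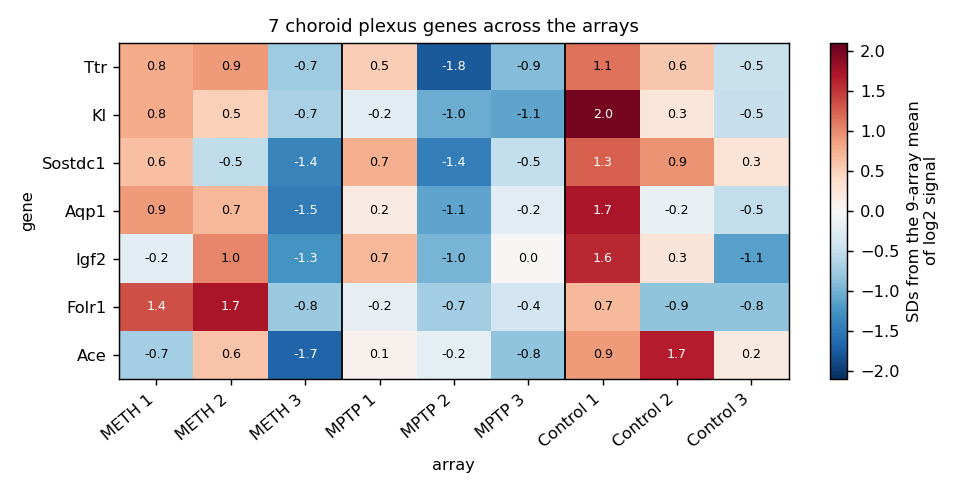
Log2 signal of 7 choroid plexus genes on the 9 arrays as SDs from each gene's mean, with METH, MPTP and control arrays from left to right. Red is above and blue below the mean. Control 1 is above the mean in every row and METH 3 and MPTP 2 are below it in every row.

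**Figure D4:**
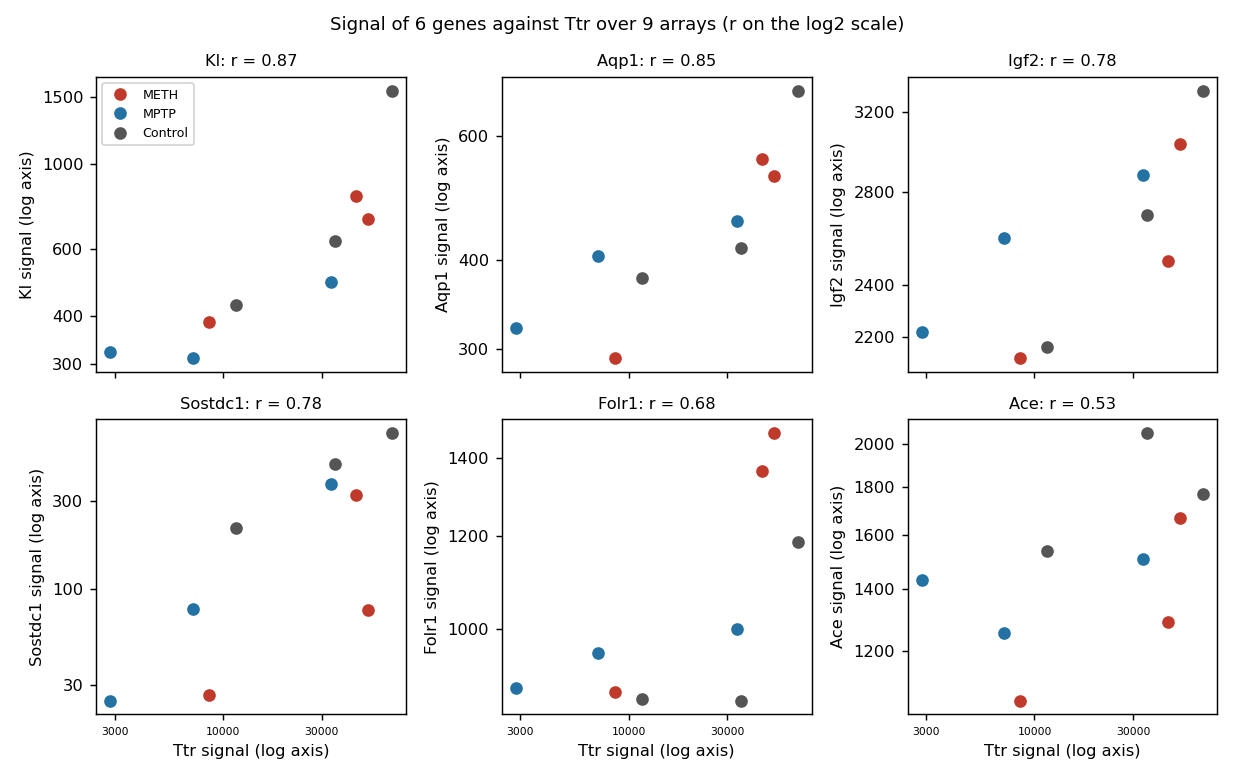
Signal of 6 choroid plexus genes against that of Ttr, 1 point per array coloured by group, log axes, with r on the log2 scale over 9 arrays. The points of Kl (r = 0.87) lie closest to a line, and those of Ace (r = 0.53) scatter most.

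Promoters of the genes with the highest pairwise correlation, Kl and Aqp1, are shown beside that of Ace, which followed Ttr least. They are the 250 bases before the start of each gene in RefSeq (GRCm38.p6, plus strand), at chr5:150952357-150952606 for Kl, chr6:55336049-55336298 for Aqp1 and chr11:105967698-105967947 for Ace. Capitals mark matches, on either strand, to the GC box GGGCGG and to TAATCC, the core that OTX homeodomain factors bind. OTX2 is a regulator of choroid plexus development.
Kl: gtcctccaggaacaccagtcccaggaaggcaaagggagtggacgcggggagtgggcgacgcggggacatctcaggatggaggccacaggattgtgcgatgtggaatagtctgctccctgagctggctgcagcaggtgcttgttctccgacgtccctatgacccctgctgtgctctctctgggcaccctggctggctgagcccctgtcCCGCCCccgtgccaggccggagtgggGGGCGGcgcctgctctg
Aqp1: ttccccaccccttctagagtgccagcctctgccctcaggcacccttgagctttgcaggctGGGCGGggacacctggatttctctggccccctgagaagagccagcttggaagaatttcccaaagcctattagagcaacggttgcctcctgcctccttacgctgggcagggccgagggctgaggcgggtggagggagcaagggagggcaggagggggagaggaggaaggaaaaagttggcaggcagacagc
Ace: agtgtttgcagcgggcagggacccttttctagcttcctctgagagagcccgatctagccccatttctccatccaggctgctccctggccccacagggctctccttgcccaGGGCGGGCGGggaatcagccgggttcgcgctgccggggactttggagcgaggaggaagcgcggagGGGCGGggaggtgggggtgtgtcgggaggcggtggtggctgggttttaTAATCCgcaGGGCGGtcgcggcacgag

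The Kl window held 2 GC boxes, that of Aqp1 1 and that of Ace 4, of which 2 overlap. TAATCC was found once, in Ace, 27 bases before the start, and in neither Kl nor Aqp1. Among 32851 promoter windows of this length 32.7% held the GC box and 6.25% held TAATCC. Of the 10 genes 5 were in the promoter table, with 9 windows, of which 5 held a GC box and 1 held TAATCC. These matches describe letters, not binding.

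Further choroid plexus genes, taken from a list of 42 symbols, followed Ttr less closely than the 6 other members did. Covariation was part of how the members were chosen, so that gap is a description only. With no filter on brightness 35 of the 42 had a probe set, and their median r with Ttr was 0.30, beside 0.04 over all 12392 other genes. A positive r was found for 28 of 35 (80.0%, against 53.8% of all genes), and r over 0.7 for 4 of 35 (11.4%, against 2.27%). Neither share was particular to choroid plexus: ependymal, endothelial and spiny neuron genes also had a positive r in 80.0%, blood genes in 83.3%, and endothelial genes had r over 0.7 in 20.0%. These 4, named after their values were seen, were Slc16a8, a monocarboxylate transporter (r = 0.84), Ecrg4, the precursor of a secreted peptide (r = 0.84), Rdh5, a retinol dehydrogenase (r = 0.84), and Lbp, which binds lipopolysaccharide (r = 0.82).

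Ecrg4 had 700, 1147 and 436 in METH 1, 2 and 3, 565, 279 and 163 in MPTP 1, 2 and 3, and 1269, 545 and 236 in control 1, 2 and 3. As with Ttr, control 1 and METH 2 were highest. Slc16a8 had 414, 717 and 321 in METH, 273, 158 and 156 in MPTP, and 726, 529 and 395 in control arrays 1, 2 and 3. Its 3 MPTP arrays lay below all others, but it was named after its values were seen and lies below the filter. Of all genes tested, which lie above the filter, arrays lay apart in either direction for 11.3% between MPTP and control and for 7.09% between METH and MPTP. Otx2 itself was dim on every array (21.8 to 165). With it, 22 of the 35 fell below the filter on their mean signal.

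The 4 brightest genes of that list had low or negative correlations with Ttr. Slc12a2, the sodium-potassium-chloride cotransporter, had r = -0.07, Car12, a carbonic anhydrase, -0.07, Stk39, a kinase that regulates Slc12a2, -0.39 and Spint2, a protease inhibitor, 0.31. Several of these are also made by glia or neurons. Over the 13 genes of the list past the filter the summed signal was 32662 to 39393 in METH, 36569 to 38372 in MPTP and 33914 to 37383 in control arrays. Median log2 differences of the 13 were 0.05 for METH and 0.04 for MPTP against control. In either comparison 0 of 13 passed, where 0.0126% of all genes were called.

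Markers of cells near the choroid plexus were looked at in the same way. Ependyma, the ciliated lining of the ventricles, had a median r with Ttr of 0.15 over 10 genes, and 0 of 10 exceeded 0.7, while 8 of 10 were positive. Of the 3 past the filter, Foxj1, the regulator of motile cilia, had r = -0.28, Tm4sf1 0.09 and Kif9 0.15. The summed signal of these 3 was 3477 to 4724 in METH, 4014 to 4403 in MPTP and 3518 to 4320 in control arrays. Meningeal and stromal genes had a median of 0.11 over 21 genes. Igfbp2, a binding protein for insulin-like growth factors, was the 1 gene of that list over 0.7 (r = 0.80). Collagen gene Col1a2 had 0.19, the matrix gene Dcn 0.46, the calcification inhibitor gene Mgp 0.17, and Ptgds, a prostaglandin synthase, -0.14.

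Endothelial genes had a median r of 0.29 over 10. The glucose transporter Slc2a1 (r = 0.73) and the junction cadherin Cdh5 (r = 0.80) exceeded 0.7, whereas the tight junction gene Cldn5 had -0.16 and Itm2a -0.56. The choroid plexus has its own capillaries, and the part of vessels in these values was not tested. Haemoglobin and white cell genes had a median of 0.30 over 6, and spiny neuron genes 0.35 over 10. Among the spiny neuron genes, Rasd2, a small GTPase of striatum, had 0.66, Ppp1r1b (DARPP-32) 0.30 and Penk 0.15.

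**Figure D5:**
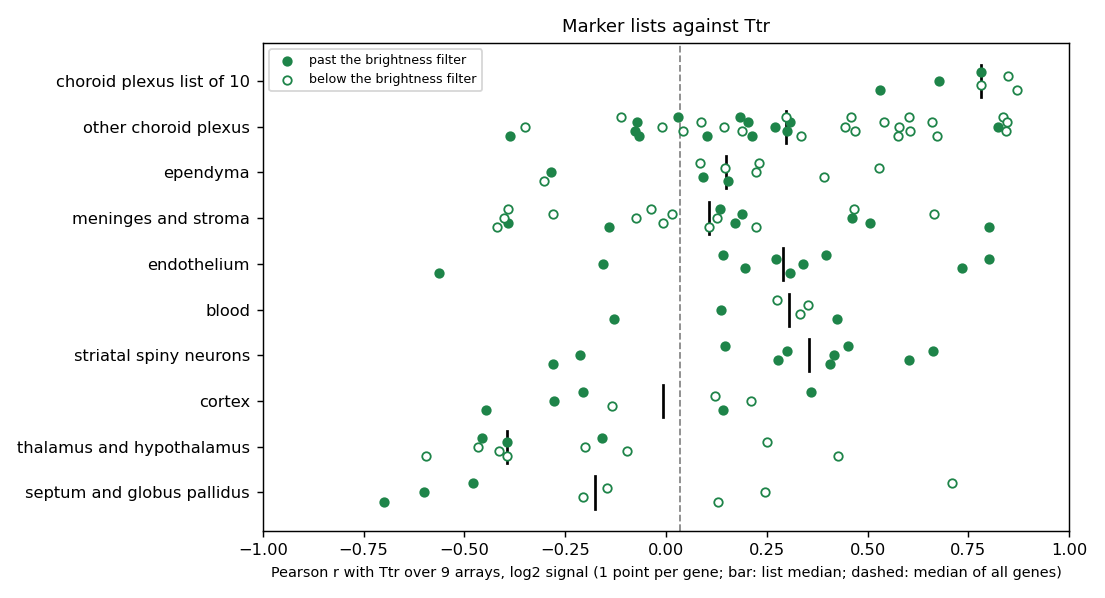
Pearson r with Ttr over the 9 arrays for each gene of 10 marker lists (log2 signal), filled where the gene passed the brightness filter and open where it did not. Bars are list medians and the dashed line is the median of all genes, 0.04. The 6 choroid plexus genes of the top row have a median of 0.78, above every other list, but covariation was part of how they were chosen.

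Other genes were ranked by r with the mean log2 deviation of the 4 members past the filter, among 573 genes that spanned at least 1 log2 unit. That mean was not scaled by gene, so it followed Ttr (r = 0.99) more than Igf2 (0.85), Folr1 (0.72) or Ace (0.60), and the ranking is largely one of likeness to Ttr. Only 1 gene exceeded 0.9, Pld2, a phospholipase D (r = 0.93, rho = 0.93). It had 1408, 1644 and 807 in METH 1, 2 and 3, 1568, 890 and 1138 in MPTP 1, 2 and 3, and 1693, 1292 and 1138 in control 1, 2 and 3. Its brightest arrays were control 1 and METH 2, and its dimmest METH 3 and MPTP 2. Sync, an intermediate filament gene, came next (r = 0.87), followed by Lbp (0.85), Igfbp2 (0.82) and Gdpd5, a glycerophosphodiesterase (0.81).

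The remaining 5 of the top 10 were Cps1, an enzyme of the urea cycle (0.79), the phosphatase gene Ctdspl (0.78), Fbxl6 (0.75), Smpdl3b (0.75) and the Wnt receptor gene Fzd4 (0.74). Without METH 3 and MPTP 2, the arrays farthest from the median of that score, these 10 had r of 0.42 to 0.92. The lowest values belonged to Acaa1a, a peroxisomal thiolase (-0.80), Bckdha, a subunit of the branched-chain keto acid dehydrogenase (-0.80), and Gabra3, a GABA-A receptor subunit (-0.74). With 9 arrays and this many genes, ranks by r are a description of these arrays. None of the 13 genes passed in limma in any of the 3 comparisons. Of all genes, 0.0126% were called for METH and for MPTP against control, and 0% between METH and MPTP.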

How the data were processed

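Striatal RNA of 9 mice was measured on single-colour Affymetrix arrays with biotin label, per the labels. The deposited intensity values are on a linear scale, with a trimmed mean of 2501 on every array, so the authors had scaled them. Per the submitters' processing notes RMA was used, but the values lack its usual log form, and how probe sets were summarised is unsettled. No detection calls were used, and the number of arrays limits precision.

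Symbols came from the platform annotation (20380 probe sets with 1 symbol, 691 with several, 1555 with none, 64 controls) and were checked by gene ID in RefSeq (20351 found, 0 changed). Values were put on the log2 scale without pseudocount, probe sets under the 40th percentile of mean log2 signal (9.53) were left out, and the brightest probe set stood for each gene. All 9 arrays were fitted in limma 3.58.1 (R 4.3.3), two-sided, with Benjamini-Hochberg adjustment over 7964 genes and a threshold of 0.05. ± after a log2 difference is the SE. The fit was tested on simulated data. The design text counts 3 biological replicates per condition and 9 samples and speaks of each mouse, which was read as 1 array per mouse. Exact tests of 3 against 3 arrays cannot go below p = 0.1 and were not used.

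Members and lists were chosen with earlier results of these data known. Named genes were all members, the 10 most and 3 least like them, up to 4 of the brightest per marker list, and others where stated. Alternatives covered scaling, filter, pseudocount, probe sets, array weights, groups in the fit, the replicate block and each array left out. Over all genes tested, same-numbered arrays did not vary together (r of their deviations -0.15 to 0.05), so the numbers were not taken as pairs. The 7 member genes followed the number only in part. Their mean distance in SDs was 1.33, 0.50 and 0.26 on replicate 1 of control, METH and MPTP. It was -0.42, -1.14 and -0.57 on replicate 3. On replicate 2 it was 0.38, 0.70 and -1.03, with no common side of the mean. With the replicate block the SE of the Ttr differences was 0.67, against 0.96 without it. What the replicate number stands for was not tested.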

Additional observations from a re-analysis of the deposited data

How the results depend on the processing

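No member passed the test under any of 22 alternatives in any of the 3 comparisons. The median log2 difference of the members for METH against control, -0.12, moved by more than the spread between mice (0.30) with array weights (0.21) and ran from -0.41 to 0.29 as single arrays were left out; it had the opposite sign in 3 of 22 alternatives. For MPTP against control, -0.21, it was -0.92 with a filter at the 60th percentile, which left only Ttr and Igf2, and -0.71 over all 13 probe sets, an alternative chosen after seeing the data, and -0.34 to -0.14 with single arrays left out. It stayed below 0 in 22 of 22, and was nearest 0 with array weights (-0.10), where 2 of the 4 genes were lower. For METH against MPTP, 0.17, it was 0.79 with the filter at the 60th percentile and 0.03 to 0.35 with single arrays left out. The median pairwise correlation of the 7 genes, 0.68, was 0.45 with the mean of all probe sets of each gene, which brings in the dim probe sets, and 0.61 to 0.73 with single arrays left out. With the replicate block it was 0.53. The replicate block left the median differences as they were and called 0 members; over all genes it called 0 in each comparison, where 1, 1 and 0 were called without it, and with centring on array medians 0 were called too. The filter at the 60th percentile left too few genes for a correlation. Quantile normalization, cyclic loess and centring moved the median of all genes by less than 0.1 log2 units. The range of Ttr over arrays, 22.9-fold, was 22.2-fold to 24.8-fold under other settings and 9.15-fold to 22.9-fold with single arrays left out. Signals below the filter limit what can be said of Kl, Aqp1 and Sostdc1.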

Other observations

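Lists of neighbouring brain regions differed in how they varied with Ttr, beside a positive r for 53.8% of all genes with no filter. Of the septum and globus pallidus list, 3 genes passed the filter, and all 3 had a negative r with Ttr over the 9 arrays. Nefm, a neurofilament gene of large projection neurons, had r = -0.70. Its signal was 9303, 9758 and 10662 in METH 1, 2 and 3, 10492, 11545 and 12384 in MPTP 1, 2 and 3, and 8769, 11660 and 12851 in control 1, 2 and 3. Control 1, the array highest in Ttr, was the lowest. Lhx8, a regulator of cholinergic and pallidal neurons, had r = -0.60 and Zic1, a septal transcription factor, -0.48. With no filter 3 of 8 genes of that list had a positive r, with a median of -0.18, and Nkx2-1, below the filter, had r = 0.71. Of 11 thalamic and hypothalamic genes, 2 had a positive r, with a median of -0.39, and of 8 cortical genes 4 had a positive r, with a median of -0.01. What these values owe to the extent of the dissected block was not tested.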
